A study of Homo sapiens with 12 samples.

Results

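A set of 8 androgen-responsive and luminal genes of the prostate epithelium was followed across 2 prostate cancer cell lines: KLK2, KLK3, KLK4, TMPRSS2, SLC45A3, FKBP5, AZGP1 and MAF. They were chosen by name, and each was found by its Ensembl identifier, giving 8 of the 58037 identifiers in the count table. RNA-seq was available for LNCaP-AI and DU-145 cells, with 3 samples in each of 4 groups and 12 samples in all. Cells of both groups of each line carried an inducible short hairpin against MUC1 (tet-MUC1shRNA) and grew without added androgen, in phenol red-free RPMI1640 with charcoal-stripped serum, as the labels state for both lines. The study's methods name that medium for LNCaP-AI and serum that was not stripped for the culture of DU-145, so a difference in medium between the lines cannot be told apart from the lines. The vehicle samples are labelled shCTL, and the samples given 500 ng/ml doxycycline (DOX) for 7 days, which turns the hairpin on, are labelled shMUC1. LNCaP-AI is an androgen-independent line selected from C4-2B cells, which descend from LNCaP, and DU-145 is a separate line that grows without androgen. DOX-treated cells with a control hairpin were not analysed here, so silencing of MUC1 and exposure to DOX cannot be told apart. The labels describe triplicate cultures, and the p-values measure the spread between those cultures of a line, not between independent derivations of it. The LNCaP-AI cultures were not alike, as given below.

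Androgens are steroid hormones that, in luminal cells of the prostate, switch on genes used for secretion, through elements in the enhancers and promoters of those genes. The kallikreins KLK2, KLK3 and KLK4, the protease TMPRSS2, the transporter SLC45A3 and the secreted protein AZGP1 are such luminal products, and FKBP5 is a chaperone induced by both androgens and glucocorticoids. In prostate cancer these genes serve as readouts of androgen signalling, and prostate-specific antigen, the KLK3 protein, is measured in blood for that purpose.

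Total counts ran from 10423437 to 13544153 in the DU-145 samples and from 16569613 to 26961777 in the LNCaP-AI samples, so a count of 3 corresponded to 0.222 to 0.286 CPM (counts scaled to a common library size) in DU-145 and to 0.110 to 0.180 CPM in LNCaP-AI. MUC1, the silenced gene, had 74, 60 and 59 counts in the DU-145 vehicle samples and 3 in each DOX sample. In LNCaP-AI its counts were 36, 25 and 52 under vehicle against 8, 6 and 3 under DOX, so every sample followed its label in both lines. The 6 LNCaP-AI samples also divided in a way that their labels do not give: the leading principal component, with 80.6% of the variance, separated vehicle 1, DOX 2 and DOX 3 from the set of vehicle 2, vehicle 3 and DOX 1. The basal keratin KRT5 had 789, 1434 and 935 counts in vehicle 2, vehicle 3 and DOX 1 against 1, 0 and 0 in vehicle 1, DOX 2 and DOX 3. The summed level of 15 basal markers was 833 to 1026 CPM on the side of vehicle 2 and 139 to 169 CPM on the side of vehicle 1, and 12 of the 15 were higher in every sample of the former. The division was not one of basal markers alone. Of 11 luminal markers, 6 were higher in every sample on the side of vehicle 2 and 2 on the side of vehicle 1. For 12 glucocorticoid genes these numbers were 7 and 2. The share of all genes that separated by side was not counted, so these numbers do not set the lists apart from other genes. Each member's change with DOX in LNCaP-AI is therefore given over all 6 samples and within each side, and the fit with side as a covariate is given for the other gene lists. The sides were taken from these same data, so the p-values of that fit leave out the uncertainty of their choice.

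In LNCaP-AI cells, 7 of the 8 genes rose with DOX and FKBP5 did not pass the test. The call was an adjusted p below 0.05 in edgeR's quasi-likelihood test, adjusted by Benjamini-Hochberg over the 16030 genes tested, all 8 members included. Of all genes tested, 7.22% were called higher, 5.52% lower and 12.7% in either direction. The median log2 fold change of the 8 genes was 1.52, against -0.05 over all genes tested. The same 7 genes had vehicle and DOX samples that did not overlap, which held for 37.4% of all genes tested. With 3 samples against 3, an exact two-sided permutation test of a single gene cannot go below p = 0.1, the value each of the 7 genes gave, so the calls rest on the fit across all genes.

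**Figure D1:**
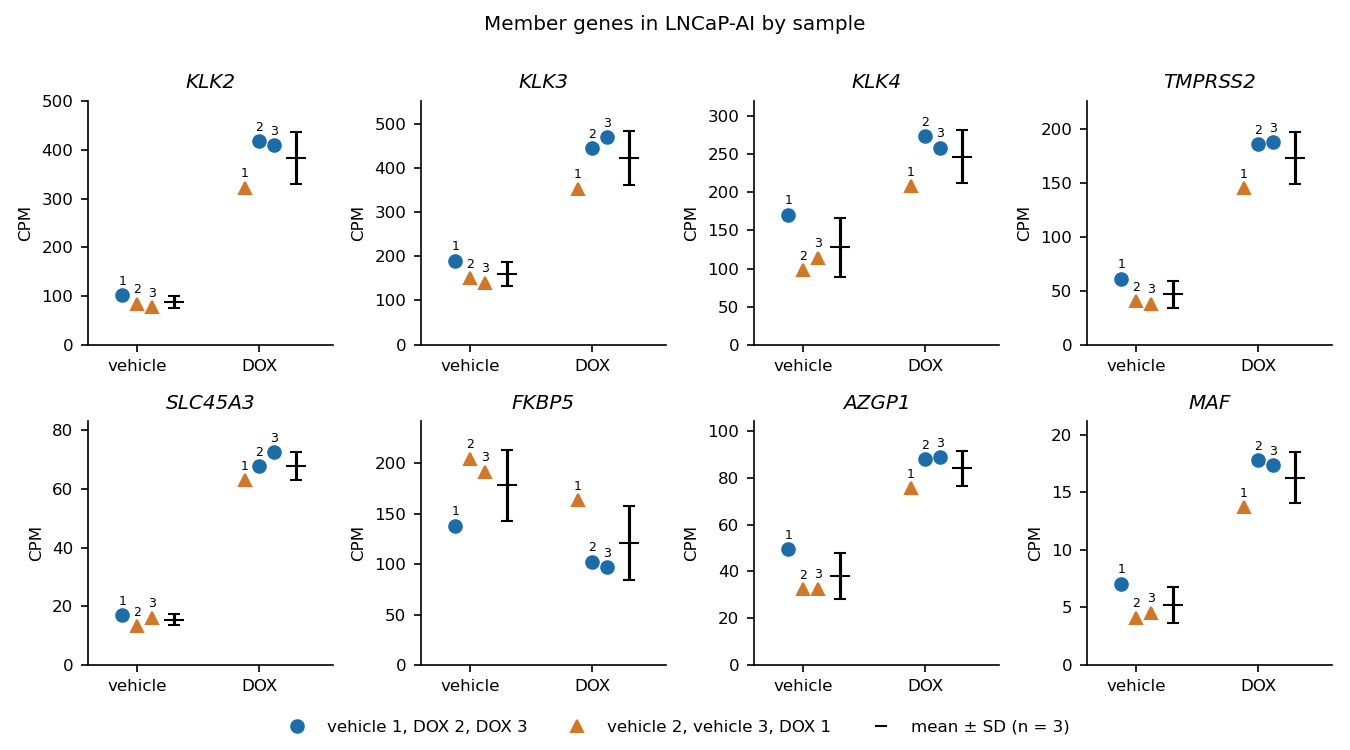
Level of each gene in the 6 LNCaP-AI samples, in CPM scaled over the line, with sample numbers beside the points and the mean ± SD of 3 samples as bars. Blue circles are vehicle 1, DOX 2 and DOX 3, and orange triangles are vehicle 2, vehicle 3 and DOX 1. In every panel but that of FKBP5 the lowest DOX sample lies above the highest vehicle sample.

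KLK3 encodes prostate-specific antigen, a secreted serine protease that liquefies semen. Its level was 190.3, 149.8 and 140.02 CPM in vehicle samples 1 to 3 and 353, 444 and 470.1 CPM in DOX samples 1 to 3. The highest vehicle sample was vehicle 1 and the lowest DOX sample was DOX 1. KLK3 rose by a log2 fold change of 1.40 (SE 0.16, adjusted p = 0.0123 by edgeR), and the log2 ratio was 1.26 among vehicle 1, DOX 2 and DOX 3 and 1.29 among vehicle 2, vehicle 3 and DOX 1. The size was thus nearly the same on both sides of the division.

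KLK2, the neighbouring gene, encodes a closely related protease that can activate prostate-specific antigen. It had 101, 84.0 and 76.6 CPM in the vehicle samples and 322, 418 and 409.9 CPM in the DOX samples. All DOX samples were far above all vehicle samples, and the ratio of the group means was 4.39. The log2 fold change was 2.13 (SE 0.16, adjusted p = 0.0109 by edgeR), with 2.03 on the side of vehicle 1 and 2.00 on the side of vehicle 2.

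KLK4 encodes a further serine protease of the prostate, which also processes enamel proteins in teeth. It had 171, 97.9 and 114 CPM with vehicle and 208, 274 and 259 CPM with DOX. Vehicle 1 and DOX 1 were separated by less than vehicle 1 and vehicle 2, so KLK4 had the narrowest gap among the 3 kallikreins. Its log2 fold change was 0.95 (SE 0.23, adjusted p = 0.0469 by edgeR), and the 2 sides gave 0.64 (that of vehicle 1) and 0.97 (that of vehicle 2). Without vehicle 2 the adjusted p of KLK4 was 0.0798 and without vehicle 3 it was 0.103.

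KLK3 and KLK2 lie side by side on chromosome 19 and their start regions are alike, so the 250 bases before each start are shown with the element that resembles an androgen response element in capitals. They come from the RefSeq promoter table of GRCh38.p14, on the plus strand, from chr19:50854665-50854914 for KLK3 and chr19:50873189-50873438 for KLK2.
KLK3: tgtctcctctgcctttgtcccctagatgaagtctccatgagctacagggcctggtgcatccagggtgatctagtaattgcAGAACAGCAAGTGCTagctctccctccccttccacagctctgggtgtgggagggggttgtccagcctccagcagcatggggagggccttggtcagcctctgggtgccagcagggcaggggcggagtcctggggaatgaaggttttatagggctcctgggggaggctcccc
KLK2: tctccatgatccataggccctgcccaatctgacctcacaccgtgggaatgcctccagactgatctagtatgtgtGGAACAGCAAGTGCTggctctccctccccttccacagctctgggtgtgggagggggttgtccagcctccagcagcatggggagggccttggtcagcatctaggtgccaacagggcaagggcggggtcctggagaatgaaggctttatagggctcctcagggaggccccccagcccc
Aligned end to end, the 2 windows shared 205 of 238 aligned bases, 86.1%. The capital run has 15 bases and begins 170 bases before the KLK3 start and 176 bases before the KLK2 start. It differs between the genes by A1G, counted from 1 at the 5′ end of the element with the KLK3 base given before the position and the KLK2 base after it. The motif searched was AGAACA, the core of an androgen response element, on either strand (TGTTCT on the other). It was found in 4350 of 35116 windows of the same length, 12.4%, and in 1 of the 9 windows that the table holds for 7 of the 8 genes, that of KLK3. The KLK2 element is not counted because its first base differs, and the complete palindrome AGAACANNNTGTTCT was in 1 of the 35116 windows and in none of the 9. These counts describe letters within 250 bases only.

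Because KLK2 and KLK3 are paralogs of high similarity, how the counting divided reads between them is uncertain, and the method of counting was not given in the sources used here. Their annotated spans are 0.804 kb apart in GENCODE 44, on the same strand. The KLK2 span there begins upstream of the RefSeq start used above.

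The kallikrein locus holds 16 genes in 265 kb. In LNCaP-AI, 7 of them passed the filter of at least 10 counts in at least 3 samples, and the 3 called by edgeR, all higher, were KLK2, KLK3 and KLK4. At an unadjusted p under 0.05, 1 of the 7 was lower, and DESeq2 called 1 lower. KLK15, the next protein-coding gene before KLK3, had 4.95, 3.69 and 3.17 CPM with vehicle and 4.02, 5.70 and 4.91 CPM with DOX, and the groups overlapped. The pseudogene KLKP1, which lies between KLK2 and KLK4, was not called either (0.48 on the log2 scale, adjusted p = 0.182 by edgeR). KLK1, the tissue kallikrein at the end of the locus, had 8.25, 4.55 and 4.31 CPM with vehicle and 2.10, 2.70 and 3.49 CPM with DOX, a log2 fold change of -1.05 that missed the threshold (adjusted p = 0.0951 by edgeR). With side as a covariate KLK1 was called lower (-1.27, adjusted p = 3.55e-06 by edgeR), while the same fit called KLK2, KLK3, KLK4 and KLKP1 (0.40, adjusted p = 0.0480 by edgeR) higher. That fit called 39.1% of all genes, 18.8% higher and 20.3% lower. The 9 genes that did not pass the filter had at most 13 counts in any LNCaP-AI sample, KLK5 next to KLK4 among them.

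**Figure D2:**
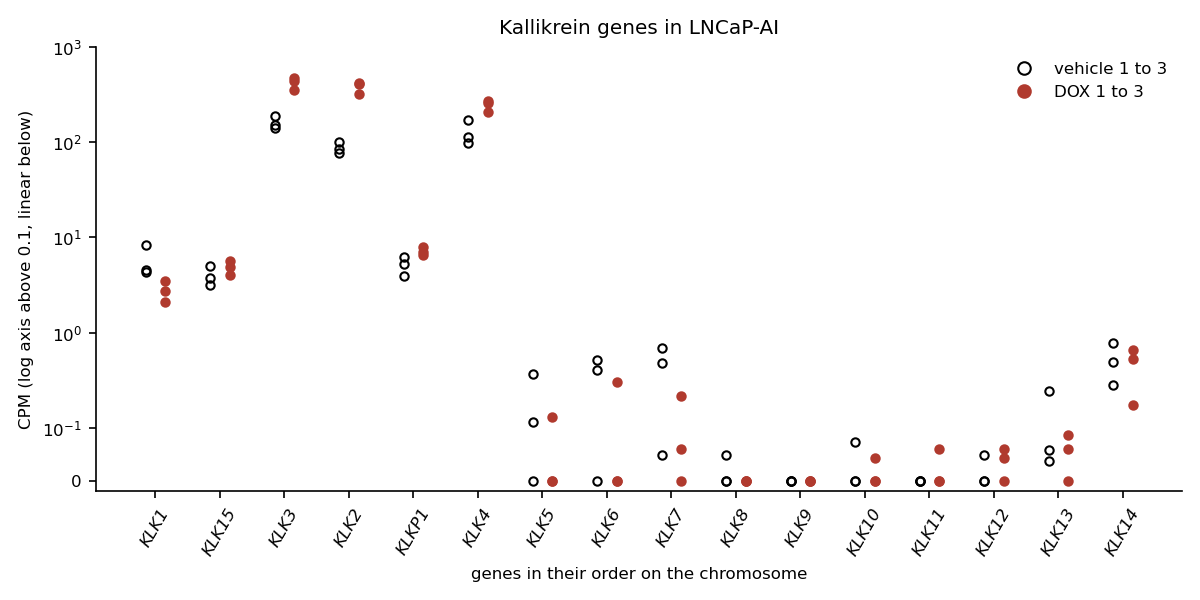
Level of the 16 genes of the kallikrein locus in LNCaP-AI, in CPM on an axis that is logarithmic above 0.1 and linear below, in their order on chromosome 19, with open circles for vehicle and filled circles for DOX samples 1 to 3. KLK3, KLK2 and KLK4 stand at 76.6 CPM or more in every sample and higher with DOX, the DOX samples of KLK1 lie at 2.10 to 3.49 CPM under its vehicle samples at 4.31 to 8.25 CPM, and the genes after KLK4 are below 1 CPM.

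TMPRSS2 encodes a transmembrane serine protease whose promoter is joined to ERG in many prostate tumours. Its level was 61.2, 40.4 and 38.1 CPM with vehicle and 145, 186 and 188 CPM with DOX. The lowest DOX sample was above the highest vehicle sample by more than the range within either group. The log2 fold change was 1.89 (SE 0.22, adjusted p = 0.0123 by edgeR), and the 2 sides gave 1.61 (that of vehicle 1) and 1.88 (that of vehicle 2). In GENCODE 44 its span overlaps that of MX1 on the opposite strand, and MX1 had 26 to 72 counts in LNCaP-AI and 77 to 112 in DU-145, where TMPRSS2 had 0 or 1.

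SLC45A3, also called prostein, is a membrane transporter of luminal prostate cells. It had 17.0, 13.2 and 16.0 CPM with vehicle and 63.0, 67.6 and 72.5 CPM with DOX, the tightest pair of groups among the 7 genes in proportion to their difference. Its log2 fold change was 2.13 (SE 0.12), with the smallest adjusted p of the 8 genes, 0.00783 by edgeR. Within the sides the log2 ratios were 2.04 and 2.10. The next genes on chromosome 1, ELK4 and NUCKS1, had log2 fold changes of -0.15 and -0.59 in LNCaP-AI and were not called (adjusted p = 0.363 and 0.0769 by edgeR).

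AZGP1 encodes zinc-alpha-2-glycoprotein, a secreted protein of glandular epithelium. It had 49.5, 32.3 and 32.7 CPM with vehicle and 75.6, 88.1 and 88.8 CPM with DOX. The log2 fold change was 1.14 (SE 0.19, adjusted p = 0.0202 by edgeR), and the 2 sides gave 0.84 (that of vehicle 1) and 1.21 (that of vehicle 2). Vehicle 1 was the highest vehicle sample here as well. Its neighbour ZKSCAN1 was not called (-0.30, adjusted p = 0.270 by edgeR).

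MAF, a basic leucine zipper transcription factor, had the lowest level of the 8 genes in LNCaP-AI. Its counts were 145, 72 and 123 under vehicle and 320, 296 and 293 under DOX, or 7.04, 4.09 and 4.53 CPM and 13.7, 17.8 and 17.3 CPM. All DOX samples were above all vehicle samples, and the log2 fold change was 1.64 (SE 0.25, adjusted p = 0.0171 by edgeR), with 1.31 and 1.64 within the sides. Its neighbour WWOX was not called (0.31, adjusted p = 0.223 by edgeR). Of the 6 genes listed from the large and small MAF family, MAF included, 5 passed the filter and MAF was the 1 called in LNCaP-AI over the 6 samples. NRL, a factor of rod photoreceptors, had 6, 9 and 7 counts with vehicle and 20, 14 and 22 with DOX, groups that did not overlap, with a ratio of mean CPM of 2.83 (adjusted p = 0.0545 by edgeR). MAF, NRL (1.49 on the log2 scale) and MAFK (0.32) were called higher with side as a covariate. Of all genes tested, that fit called 18.8% higher and the fit over the 6 samples 7.22%.

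FKBP5 encodes an HSP90 co-chaperone that binds steroid receptor complexes. It had 138, 205 and 192 CPM with vehicle and 164, 103 and 96.9 CPM with DOX, and the groups overlapped because DOX 1 lay above vehicle 1. Every sample on the side of vehicle 2 lay above every sample on the side of vehicle 1, which held for 1 of the 8 members, FKBP5. The log2 fold change was -0.56 (SE 0.25, adjusted p = 0.191 by edgeR). Within the sides the log2 ratio was -0.47 and -0.28, so the direction was the same in both. The next gene, ARMC12, was not called (-0.54, adjusted p = 0.283 by edgeR). Among the 8 genes FKBP5 alone had a negative value in LNCaP-AI. With side as a covariate it was called lower (-0.37, SE 0.09, adjusted p = 0.00112 by edgeR), together with the other 7 called higher. That fit, whose sides came from these same data, called 20.3% of all genes tested lower and 18.8% higher. Without DOX 1, FKBP5 was called lower (-0.81, adjusted p = 0.0345 by edgeR). The DOX samples left in that fit both lie on the side of vehicle 1, where FKBP5 ran low within a treatment. Side and treatment are therefore partly mixed in that value.

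**Figure D3:**
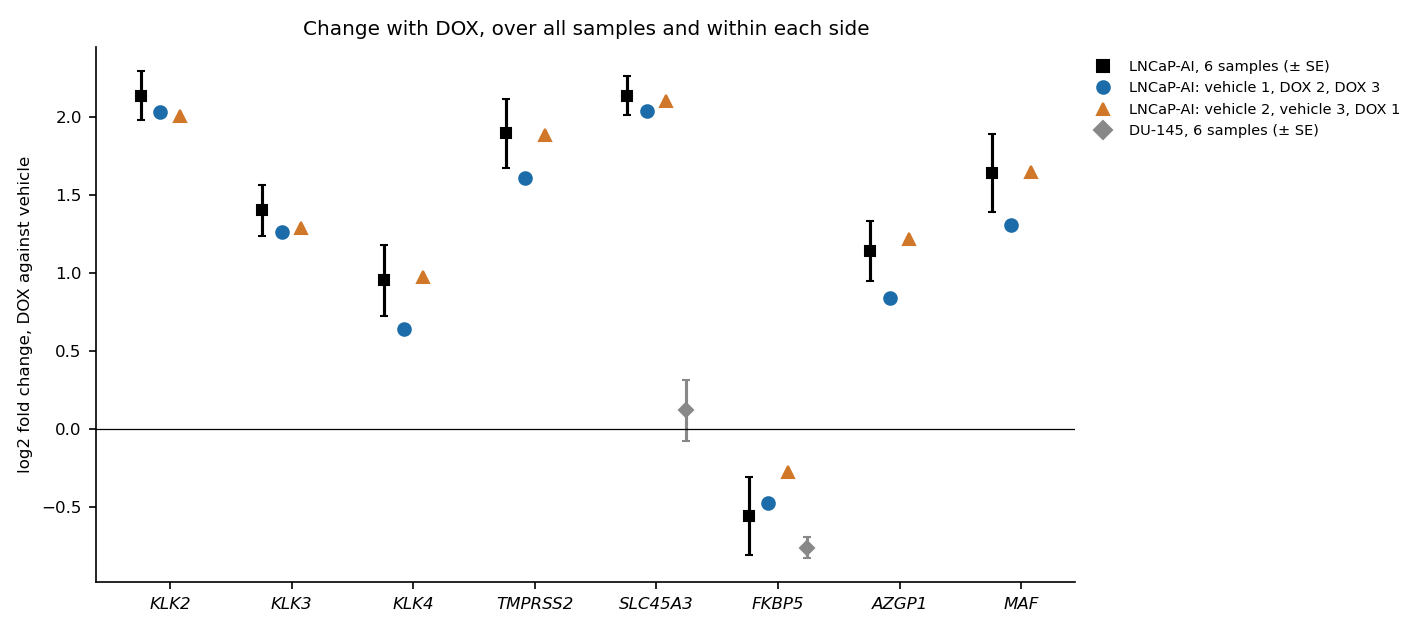
Log2 fold change with DOX for each gene, as the edgeR estimate ± SE over the 6 LNCaP-AI samples (squares), as log2 ratios of mean CPM within each side of the division (circles and triangles) and as the edgeR estimate ± SE in DU-145 for SLC45A3 and FKBP5 (diamonds). For 7 genes all LNCaP-AI values are above 0, from 0.64 to 2.13, and for FKBP5 all are below 0.

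The members followed the division as well as the treatment. Within the vehicle group the 7 genes that rose were highest in vehicle 1, at 1.16 (SLC45A3) to 1.63 times (MAF) the mean of vehicle 2 and vehicle 3. Within the DOX group the same 7 genes were lowest in DOX 1, at 0.773 (KLK3) to 0.899 times (SLC45A3) the mean of DOX 2 and DOX 3. FKBP5 ran the other way, at 0.698 times in vehicle 1 and 1.64 times in DOX 1. The part of the basal markers, which moved with the division, in the changes of the members was not tested. In bulk samples, fewer cells of a type and less RNA per cell cannot be told apart. Without DOX 2 or without DOX 3, edgeR called 0 of the 8 genes, with an adjusted p of 0.0854 and 0.0829 for KLK2, while 7 had an unadjusted p under 0.05. Each of those fits called 1 gene in all, and in them the log2 fold changes of the 7 genes lay between 0.88 and 2.14.

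The 2 lines differed in the members before any treatment. In the DU-145 vehicle samples, KLK2, KLK3, KLK4, TMPRSS2, AZGP1 and MAF had 0 counts in every sample. In LNCaP-AI vehicle samples the same genes were all measured, so the differences are lower bounds, taken against a floor of 3 counts per library and with the 6 vehicle samples scaled together. KLK3 was at least 545-fold higher in LNCaP-AI, KLK4 at least 434-fold, KLK2 at least 297-fold, TMPRSS2 at least 158-fold, AZGP1 at least 129.8-fold and MAF at least 17.7-fold. SLC45A3 was measured in both lines, at 4.50 ± 0.74 CPM in DU-145 (SD, n = 3; 60, 35 and 56 counts) and 14.4 ± 1.74 CPM in LNCaP-AI (350, 233 and 435 counts). Its groups did not overlap, and it was higher in LNCaP-AI by a log2 fold change of 1.67 (SE 0.19, adjusted p = 0.000239 by edgeR). FKBP5 went the other way, with 294, 279 and 282 CPM in DU-145 and 127, 192 and 181 CPM in LNCaP-AI. It was lower in LNCaP-AI by a log2 fold change of -0.77 (SE 0.16, adjusted p = 0.00376 by edgeR). SLC45A3 and FKBP5, the 2 members measured in both lines, were thus both called, in opposite directions. The other 6 passed the filter on low counts through LNCaP-AI alone and had to differ, so their calls are not counted. Of the 15628 genes tested between the lines, 65.1% were called, 35.0% higher and 30.2% lower in LNCaP-AI, and 73.2% had groups that did not overlap.

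**Figure D4:**
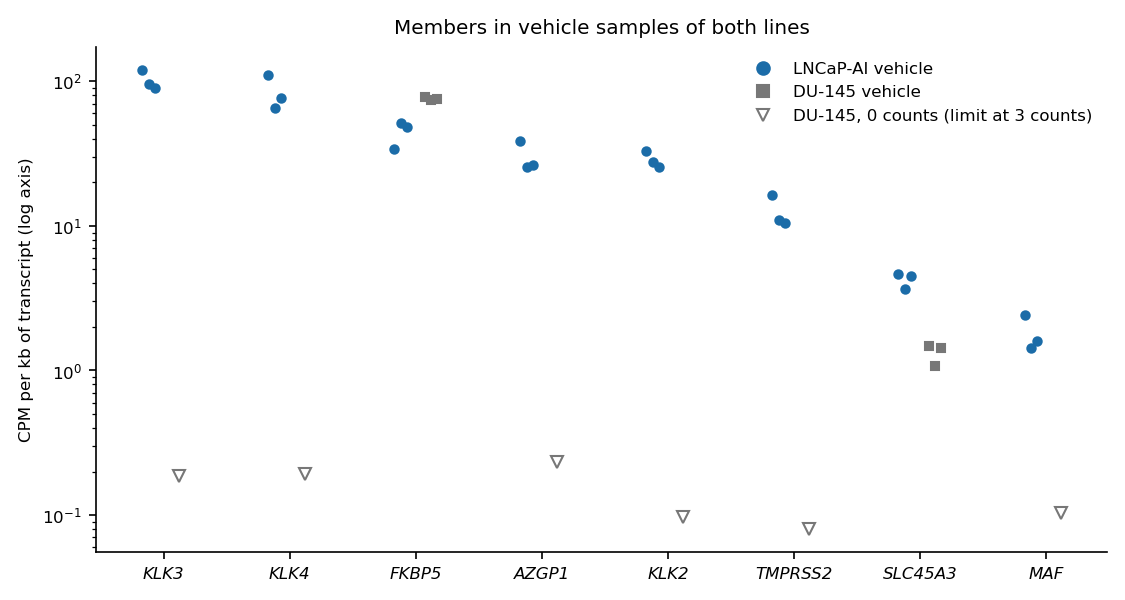
Level of each gene in the vehicle samples of both lines, in CPM per kb of the canonical transcript on a log axis, with all 6 samples scaled together. Points are single samples and open triangles mark the limit that 3 counts set where all DU-145 samples had 0 counts. SLC45A3 and FKBP5 are measured in both lines, and FKBP5 is the one gene that is higher in DU-145.

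Per kb of transcript, KLK3 and KLK4 were the most abundant members in LNCaP-AI vehicle samples, at 109 ± 18.2 and 90.2 ± 27.1 CPM per kb (SD, n = 3), and their ranges overlapped. FKBP5 followed at 47.5 ± 9.38 CPM per kb. AZGP1 at 32.3 ± 8.29 CPM per kb overlapped with FKBP5 above it and with KLK2 below it, at 30.9 ± 4.51 CPM per kb. TMPRSS2 at 13.5 ± 3.69, SLC45A3 at 4.55 ± 0.57 and MAF at 1.96 ± 0.60 CPM per kb were each separate from their neighbours in this order. With DOX the order was KLK3 at 289 ± 41.9, KLK4 at 174 ± 24.4, KLK2 at 136 ± 18.8, AZGP1 at 71.3 ± 6.30 and TMPRSS2 at 50.1 ± 7.01 CPM per kb. FKBP5 at 32.3 ± 9.88 CPM per kb came next and overlapped with TMPRSS2, so it moved from the third place to the sixth. SLC45A3 at 20.0 ± 1.40 and MAF at 6.09 ± 0.84 CPM per kb stayed last. KLK4 and KLK2 overlapped with DOX, at lowest 146.9 for KLK4 and at highest 147.9 CPM per kb for KLK2. The order depends on the length used: over all annotated exons KLK4, at 63.7 CPM per kb with vehicle, came before KLK3 at 34.5.

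In DU-145 cells FKBP5 fell with DOX, SLC45A3 did not pass the test and the other 6 genes were not measurable. FKBP5 had 269.8, 255 and 259 CPM with vehicle and 161, 151 and 151 CPM with DOX, and the groups did not overlap. Its log2 fold change was -0.76 (SE 0.07, adjusted p = 1.92e-08 by edgeR). The counts of SLC45A3 were 60, 35 and 56 under vehicle and 40, 67 and 59 under DOX, or 4.60, 3.34 and 4.47 CPM and 3.58, 4.96 and 4.98 CPM. The groups overlapped, and the log2 fold change of 0.12 (SE 0.20, adjusted p = 0.640 by edgeR) did not pass the test. The other 6 genes had 0 counts in all 6 samples, apart from 1 count of TMPRSS2 in DOX 1, so no change in them was detectable at this depth. Of the 2 members that passed the filter, FKBP5 alone was called, where 25.3% of the 13644 genes tested were called lower, 26.3% higher and 51.5% in either direction, and 57.4% had groups that did not overlap.

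The change with DOX could be compared between the lines for SLC45A3 and FKBP5 only, since the other 6 genes were at or near 0 in DU-145 and gave no estimate there. SLC45A3 changed more in LNCaP-AI, by a difference of log2 fold changes of 2.05 (SE 0.22, adjusted p = 0.000914, edgeR interaction test over 12 samples). For FKBP5 the difference was 0.23 (SE 0.28, adjusted p = 0.653 by edgeR). An interaction was called for 9.18% of the 16800 genes tested, with the change higher in LNCaP-AI for 5.43% and lower for 3.76%.

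HOXB13, a homeobox factor of the prostate, had 242 to 414 CPM in LNCaP-AI and 0 counts in DU-145, and it was not called in LNCaP-AI (0.22, adjusted p = 0.593 by edgeR). FOXA1, a pioneer factor of luminal cells, was called in neither line over 6 samples, and in LNCaP-AI it was called higher with side as a covariate (0.28, adjusted p = 0.0143 by edgeR). Of 19 genes for pioneer factors and steroid receptor coregulators, 1 was called higher (NCOA4, a coactivator, 0.34) and 1 lower (MED1, a subunit of Mediator, -0.64) in LNCaP-AI, and their median log2 fold change was -0.05 (-0.18 and -0.06 within the sides). The fit with side as a covariate called 4 higher and 4 lower. Over all genes tested, 12.7% were called across the 6 samples and 39.1% with side as a covariate.

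Other genes known to be induced by androgen moved partly with the members. Of 41 such genes, 38 were tested in LNCaP-AI, 15 were called higher, 1 lower and 22 were not called, with a median log2 fold change of 0.49 (0.50 and 0.43 within the sides). Over all genes tested, 7.22% were called higher and 5.52% lower. Those with the smallest adjusted p were HERC3, a ubiquitin ligase, at 1.74, EAF2, which binds the elongation factor ELL, at 1.86 and AGR2, a disulfide isomerase of secretory cells, at 2.03. NCAPD3, a condensin subunit, was called lower at -0.61. The fit with side as a covariate called 25 higher and 4 lower, against 18.8% and 20.3% of all genes tested. In DU-145, 26 of the 41 genes were tested, 14 were called higher and 4 lower. Among them were C1orf116 (1.99) and NDRG1 (1.29) upward and PMEPA1 (-0.98) and RHOU (-2.16) downward. Over all genes tested in that line, 26.3% were called higher and 25.3% lower. The interaction was called for 11 of the 38 tested. The change was higher in LNCaP-AI for 8, among them HERC3 (1.30) and ABCC4 (0.76). It was lower there for 3, NCAPD3 (-0.75), ELL2 (-0.66) and UAP1 (-0.44). Over all genes tested, the interaction was called for 9.18%. Of 6 genes known to be repressed by androgen, 5 were tested in LNCaP-AI and edgeR called 0 over the 6 samples, with 2 at an unadjusted p under 0.05, 1 called higher by DESeq2 and a median of -0.24. With side as a covariate edgeR called 4 of the 5, FOLH1, the prostate-specific membrane antigen, higher at 0.52 and 3 lower, among them the esterase gene BCHE at -0.81.

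FKBP5 is shared with the glucocorticoid response, so that list was read beside it. Of 12 genes for the glucocorticoid receptor and its response, FKBP5 included, 1 was called in LNCaP-AI, ZBTB16 upward at 1.40, and with side as a covariate 3 were called higher and 2 lower. Those fits called 12.7% and 39.1% of all genes tested. The receptor gene NR3C1 had 829, 1261 and 924 counts in vehicle 2, vehicle 3 and DOX 1 and 47, 20 and 21 counts in vehicle 1, DOX 2 and DOX 3, the same samples in which FKBP5 ran high and low within a treatment. Its part in the level of FKBP5 was not tested. In DU-145, NR3C1 stood at 218 to 262 CPM in all 6 samples and was not called (-0.09, adjusted p = 0.305 by edgeR). There 5 of 11 tested genes of the list were called higher, with SGK1 at 2.02, MT2A at 1.54 and DUSP1 at 0.67, and FKBP5 was the 1 called lower. Over all genes tested in DU-145, 51.5% were called, so the list did not stand out by its number of calls. Among the 8 cytosolic FKBP genes listed, FKBP5 included, 5 were tested, and FKBP1A was called higher in LNCaP-AI at 0.41, with 1 higher and 1 lower when side was a covariate. FKBP4, the related co-chaperone, had 490 to 667 CPM with vehicle and 524 to 548 CPM with DOX there.

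Lineage markers showed how far the members stood for luminal identity as a whole. Of 11 luminal epithelial markers, 2 were called higher in LNCaP-AI, the tight junction gene CLDN4 at 1.31 and the epithelial factor ELF3 at 0.82, and 4 were called higher with side as a covariate. Those fits called 7.22% and 18.8% of all genes tested higher. In DU-145, 7 of 9 tested luminal markers were called higher, with EPCAM at 1.52, KRT18 at 1.12 and KRT8 at 1.14, where 26.3% of all genes tested were called higher. Of 15 basal markers, KRT14 was the 1 called in LNCaP-AI, upward at 1.92 from 20 to 27 counts with vehicle to 74 to 76 with DOX. The median of the basal list was -1.16 over the 6 samples but -0.01 and -0.22 within the sides, and with side as a covariate 1 was called higher and 2 lower. Of 10 neuroendocrine markers, 3 were tested in LNCaP-AI and edgeR called 0 over the 6 samples, with 0 at an unadjusted p under 0.05 and 0 called by DESeq2. With side as a covariate SYP, the gene of the vesicle protein synaptophysin, was called higher (0.70, adjusted p = 0.00275 by edgeR). In DU-145 SYP rose by 1.12 (adjusted p = 0.00467 by edgeR) and NCAM1, a neural adhesion molecule, fell with DOX (-4.81, adjusted p = 2.06e-07 by edgeR). The summed level of the neuroendocrine list was 26.3 to 37.3 CPM in the LNCaP-AI samples, where 3 to 5 of the 10 were at 0. Most of that sum was ENO2, at 21.5 to 26.9 CPM. CHGB followed the division, with 103, 156 and 106 counts in vehicle 2, vehicle 3 and DOX 1. In vehicle 1, DOX 2 and DOX 3 CHGB had 0, 1 and 1 counts.

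**Figure D5:**
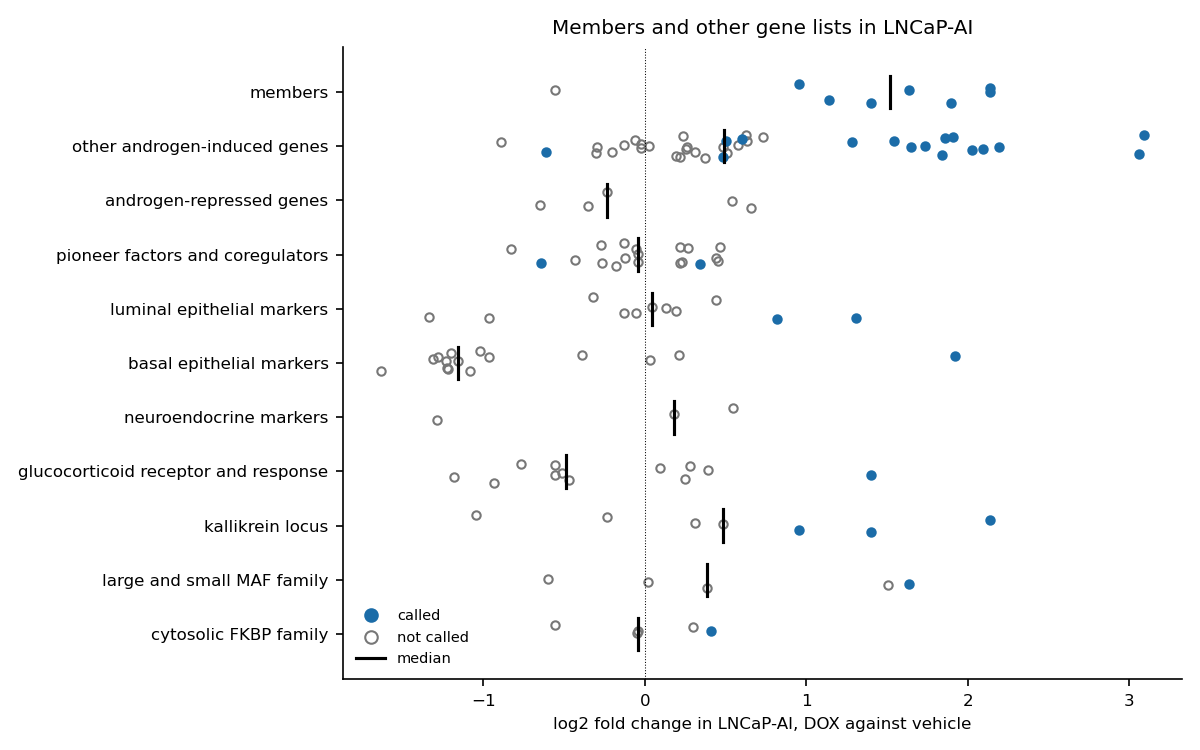
Log2 fold change with DOX in LNCaP-AI for the members and for each gene list, with filled points for called genes, open points for the others and a bar at the median. The members have a median of 1.52 and the other androgen-induced genes one of 0.49, and the basal markers lie mostly below 0 over the 6 samples.

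By Pearson correlation of log2 CPM over the 6 LNCaP-AI samples, the genes closest to the mean profile of the 8 members, among 11024 others with a mean of at least 5 CPM, were SNHG19, MAPRE3, GPR158, H2BC21 and CYP1A1. Their r with the profile was 0.998 to 0.999, and 106 genes reached 0.99, so they are examples from a larger set whose values share libraries and a large difference between groups. The members themselves had r from 0.952 (KLK4) to 0.997 (TMPRSS2), and FKBP5 had -0.797. Each member is part of the profile, so its r is partly built in. GPR158, an orphan receptor, had 3.88, 2.05 and 2.28 CPM with vehicle and 14.9, 21.2 and 18.7 CPM with DOX, and like KLK2 it had 0 counts in DU-145. H2BC21, a histone H2B gene, had 46.9, 31.9 and 30.9 CPM with vehicle and 174, 228 and 218 CPM with DOX in LNCaP-AI. In DU-145 it was not called (-0.17), and SNHG19, a small nucleolar RNA host gene, was called lower there (-0.49) although it rose by 1.63 in LNCaP-AI.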

How the data were processed

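Strand-specific poly(A) RNA-seq of 12 cultures was read from the deposited table of raw counts per gene, which the authors made with CASAVA 1.8.2 and STAR 2.7.0 on GRCh38 patch 7 (per the labels); DESeq2 1.24.0 is also named there. The counting tool and its strand setting are not given in the sources used here. Symbols and loci came from GENCODE 44 and RefSeq tables; 56948 of 58037 identifiers had a symbol. Genes that reached 10 counts in 3 or more samples were tested with edgeR 4.0.16 (R 4.3.3; TMM, quasi-likelihood, Benjamini-Hochberg, threshold 0.05), per line for DOX against vehicle, between lines for vehicle, and over 12 samples for the interaction. CPM use TMM-scaled totals. Log2 ratios within sides had a pseudocount of 0.1 CPM and no test. DESeq2 1.42.0, other scalings, filters and samples were tried as alternatives, and the fit was tested on simulated data. Named genes were the members, MUC1, line-marking genes, each member's neighbours and the 5 genes most like the members. From each list, at most 3 called genes per comparison and direction were named, by the smallest adjusted p. HOXB13, FOXA1, NR3C1, KLK1, KLK15, KLKP1, KRT5, FKBP4, KLK5, ENO2 and CHGB were given for context after their values were seen. Members and lists were chosen with earlier results of these data known. Some genes that the lists would hold are not reported here. Floors cover counting error only.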

Additional observations from a re-analysis of the deposited data

Results flagged for a closer look

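The change of SLC45A3 with DOX differed between the lines. The log2 fold change was 2.13 in LNCaP-AI and 0.12 in DU-145, and the interaction of line and treatment was 2.05 (SE 0.22, adjusted p = 0.000914 by edgeR). SLC45A3 had 35 to 67 counts in the DU-145 samples and 233 to 1472 in the LNCaP-AI samples, so its value in DU-145 rests on fewer reads.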

How the results depend on the processing

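In LNCaP-AI the edgeR fit of the report called 2043 genes, DESeq2 3517, a single fit of all 12 samples 3933, side as a covariate 6271 and edgeR with the replicate block 0 (2909 at an unadjusted p under 0.05). Members called were 7 under DESeq2, both other scalings, both other filters and the fit of all samples, 8 with side as a covariate and 0 with the replicate block, where KLK2 had an adjusted p of 0.158 by edgeR and 7 members an unadjusted p under 0.05. Leaving out 1 sample gave 1 to 3538 genes and 0 to 8 members, with 1 gene and 0 members without DOX 2 or without DOX 3. Without vehicle 1, 70.9% of calls were higher, against 56.7%. Each member kept its direction in LNCaP-AI under every alternative run. In DU-145, 7033 genes were called and 4083 in the fit of all 12 samples; SLC45A3 ranged from -0.00437 (without DU-145 vehicle 2) to 0.26 with 1 sample left out. Between the lines, 2 of 8 members were called without any 1 LNCaP-AI vehicle sample, because 6 then failed the filter of 3 samples; without a DU-145 sample 8 were called. The interaction was called for 1543 genes, 884 with no filter and 52 with the replicate block, where SLC45A3 was lost, leaving 0 members called (1 at an unadjusted p under 0.05), and had an adjusted p of 0.0553 by edgeR; leaving out 1 sample gave 737 to 3471, and FKBP5 ranged from -0.0476 (without LNCaP-AI DOX 1) to 0.38. After each treatment's mean was taken off, same-numbered samples correlated at -0.943 to -0.823 in LNCaP-AI and -0.0999 to 0.139 in DU-145. In LNCaP-AI same-numbered samples lie on opposite sides of the division, so its negative values restate the division. They cannot show whether the cultures were set up in pairs, and the main fits did not pair samples by number. The median of all genes between the lines was 0.06, and 0.20 with no filter. Where no construction shows it, the cause was not tested.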
